A study of Mus musculus with 8 samples.

Results

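Foxa1, Foxa2 and Foxa3 are the 3 forkhead box A transcription factors of the mouse, and they were followed here through RNA sequencing of Lgr5-GFP+ intestinal stem cells sorted from 8 mice. The members are the rows of the deposited tables that carry these 3 gene symbols, 3 of 25485 genes in the table of normalized values and of 53801 genes in the table of counts. Every mouse carried the mutation labelled β-catGOF, a gain-of-function allele of β-catenin, together with an Lgr5-EGFP-IRES-CreERT2 allele, which marks stem cells with GFP and drives the recombination from the Lgr5 locus. The 4 mice of one group were labelled β-catGOF; Mll1-/- (libraries J_7075, J_7096, J_7135 and J_7136) and the 4 of the other β-catGOF; Mll1+/- (libraries J_7079, J_7100, J_7134 and J_7139), so the controls also lacked 1 copy of Mll1, the histone methyltransferase encoded by Kmt2a. The mice had been given tamoxifen (50 mg/kg, 3 days) at 4 to 6 weeks of age, and the crypts were taken at day 10. Each library is described by the study as the sorted cells of 1 mouse. Cells in which the alleles had not recombined cannot be told apart from those in which they had.

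Foxa proteins bind DNA through a forkhead (winged helix) domain whose fold resembles that of a linker histone, and they can engage compacted chromatin ahead of other factors, for which they are called pioneer factors. They act early in the endoderm and later in liver, pancreas, lung and gut. In the intestinal epithelium Foxa1 and Foxa2 are known for their part in the goblet and enteroendocrine lineages, and Foxa3 is a further endodermal member that is also expressed in liver and gut. Mll1 methylates lysine 4 of histone H3.

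In the libraries labelled Mll1-/-, Foxa1 stood at 0.252 times its level in those labelled Mll1+/-, while the means of Foxa2 and Foxa3 were 1.39 and 1.44 times as high. Per kilobase, Foxa1 was thus the most abundant member in 4 of 4 Mll1+/- libraries and the least abundant in 3 of 4 Mll1-/- libraries, and the summed level of the 3 genes overlapped between the genotypes. The family was chosen with this contrast in view, so the differences of the 3 members between genotypes are a description: the fitted values are given with their errors, and nothing is concluded from whether a member passed the threshold.

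The 3 genes lie on different chromosomes, and the 250 bases before their annotated starts are shown so that the sequence next to each start can be set beside the levels below (RefSeq, GRCm38.p6, 5′ to 3′ on the strand of the gene, capitals marking a forkhead core motif). Foxa1 (ENSMUSG00000035451) covers chr12:57540628-57546916 on the minus strand. Its printed bases lie at chr12:57546122-57546361, and 10 of the 250 bases are left out because an exon of the counted gene model covers them; that model has a further start upstream of this window. Foxa2 (ENSMUSG00000037025) covers chr2:148042877-148046969 on the minus strand. The bases before the most upstream of its 3 RefSeq starts are at chr2:148046970-148047219. Foxa3 (ENSMUSG00000040891) covers chr7:19013284-19023538 on the minus strand, and its printed bases are at chr7:19023540-19023789.
Foxa1: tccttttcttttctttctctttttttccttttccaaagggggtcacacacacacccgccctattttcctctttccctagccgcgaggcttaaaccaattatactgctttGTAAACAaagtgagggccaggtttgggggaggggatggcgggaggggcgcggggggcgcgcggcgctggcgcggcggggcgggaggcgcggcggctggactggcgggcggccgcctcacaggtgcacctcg
Foxa2: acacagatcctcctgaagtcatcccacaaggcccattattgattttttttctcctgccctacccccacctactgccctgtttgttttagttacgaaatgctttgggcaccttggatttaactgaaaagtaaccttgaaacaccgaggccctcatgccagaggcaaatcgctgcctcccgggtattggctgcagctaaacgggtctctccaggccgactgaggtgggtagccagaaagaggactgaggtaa
Foxa3: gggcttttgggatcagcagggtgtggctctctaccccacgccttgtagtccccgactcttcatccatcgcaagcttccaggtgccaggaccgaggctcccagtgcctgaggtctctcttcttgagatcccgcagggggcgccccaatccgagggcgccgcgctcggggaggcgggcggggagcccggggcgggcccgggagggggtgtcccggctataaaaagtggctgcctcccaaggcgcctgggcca
The forkhead core TGTTTAC, searched on both strands, was present once, in Foxa1, as its reverse complement 141 to 135 bases before the start, and 3.17% of the 32851 RefSeq promoter windows of this length hold it. No match was found in these 3 windows to the related cores TGTTTGC (4.30% of all windows) and TATTTAC (2.73%), to the TCF/LEF core CTTTGAT (3.21%) or to the GATA core AGATAA (9.99%). A window before another start of Foxa2, which is not printed, held AGATAA 183 to 178 bases before that start. The windows of Foxa1 and Foxa3 held 21 and 18 CG dinucleotides in 250 bases, above the upper quartile of all windows (16), while that of the most upstream Foxa2 start held 6, the median of all windows. The windows before the other starts of Foxa2 held 20 and 13. A match describes these letters only, and no binding or chromatin data of these cells were analysed here.

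Depth was similar in all libraries, with 14468751 to 16847793 counts on genes and 15983 to 17266 genes with at least 10 counts. A total of 16445 genes passed the filter on low counts and were tested with edgeR's quasi-likelihood test, all 3 members among them. At an adjusted p below 0.1, 14 genes were called, which is 0.0851% of those tested, and 6 of them (0.0365%) were lower in the libraries labelled Mll1-/-. A further description used here is whether the ranges of the 2 genotypes were fully apart (no overlap), as they were for 1032 genes (6.28%). The check on the labels was not informative: Kmt2a, which encodes Mll1, had 63.5 ± 10.7 CPM (CPM being counts scaled to a common library size with TMM, SD, n = 4) in the Mll1-/- and 53.8 ± 7.45 CPM (SD, n = 4) in the Mll1+/- libraries, and reads of the deleted part of the gene cannot be told from the others in a count over the whole gene. Genotypes are therefore named as labelled. Library J_7135 (Mll1-/-) stood apart, with a highest Spearman correlation to any other library of 0.909 against 0.947 or more for the rest, and it held both Xist (208 CPM) and the Y-linked Eif2s3y (99.5 CPM), transcripts that were each near 0 in some of the other libraries. Xist was at 404 to 759 CPM and Eif2s3y at most 0.0657 CPM in J_7079, J_7100 and J_7139 (Mll1+/-) and J_7136 (Mll1-/-). Xist was at most 2.84 CPM and Eif2s3y at 152 to 173 CPM in J_7075 and J_7096 (Mll1-/-) and J_7134 (Mll1+/-). These patterns were thus unevenly divided between the genotypes. Sex is not labelled, and whether library J_7135 holds cells of more than 1 animal was not tested. Values without library J_7135 are given beside the results that it moves most.

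The defining markers of Lgr5+ epithelium were present, and the summed level of several marker lists moved with genotype. All 8 Lgr5 stem cell markers and all 5 epithelial markers were detected, and Lgr5 itself had 261 ± 19.9 and 271 ± 41.0 CPM (SD, n = 4 each) in the Mll1-/- and Mll1+/- libraries. The summed stem cell markers were 10452 to 17011 CPM in the Mll1-/- and 22611 to 27052 CPM in the Mll1+/- libraries, most of which was Olfm4 (8080 to 14429 and 19281 to 22949 CPM). Slc12a2 was lower too, without overlap (1168 to 1740 and 2155 to 2920 CPM). The stem cell marker Axin2 was higher without overlap (185 to 267 and 149 to 183 CPM). Lgr5, Ascl2, Smoc2, Cdk6 and Tnfrsf19 overlapped between the genotypes. Summed enterocyte markers, all 7 detected, were 181 to 259 and 304 to 395 CPM. Paneth markers (8 of 8) summed to 1368 to 2590 and 2017 to 4876 CPM. Most of the Paneth sum was Defa24 (727 to 1514 and 1357 to 3539 CPM). The Paneth marker Mmp7 went the other way without overlap (224 to 428 and 138 to 165 CPM). Goblet markers (7 of 7) summed to 638 to 1155 and 594 to 785 CPM. Stromal markers (8 of 8) summed to 52.2 to 122 and 8.01 to 11.95 CPM, of which Vim alone made up 44.3 to 116 and 0.194 to 4.89 CPM, while of the other 7 Pecam1 reached 5.91 CPM and was present in every library, Pdgfrb reached 5.84 CPM (J_7135), Col1a2 1.48 CPM, and Col1a1, Col3a1, Acta2 and Pdgfra stayed below 1 CPM. Immune markers (8 of 8) summed to 3.19 to 8.11 and 7.60 to 16.3 CPM, enteroendocrine markers (8 of 8) to 2.89 to 7.47 and 7.30 to 70.4 CPM, and tuft markers (5 of 6, Il25 at 0) to 2.96 to 9.27 and 2.51 to 3.29 CPM. In sorted bulk cells, fewer cells of a type and less RNA per cell cannot be told apart, and the part of these shifts in the values of the Foxa genes was not tested.

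Foxa1, the member best known as a pioneer factor of luminal epithelia, was counted with 114 to 227 reads in the Mll1-/- and 407 to 621 reads in the Mll1+/- libraries. Its level was 13.4 CPM in library J_7075, 8.57 in J_7096, 6.81 in J_7135 and 7.49 in J_7136, all labelled Mll1-/-. In the Mll1+/- libraries it was 32.3 CPM in J_7079, 43.7 in J_7100, 32.6 in J_7134 and 35.3 in J_7139. The groups did not overlap, and the lowest Mll1+/- library lay 2.41 times above the highest Mll1-/- library. The means were 9.07 ± 2.97 and 35.97 ± 5.31 CPM (SD, n = 4 each), a log2 fold change of -1.99 (SE 0.25).

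The direction and size of the difference were similar in the 8 fits without 1 library, with log2 fold changes of -2.24 to -1.87. Within libraries J_7075 to J_7100 (2 of each genotype) the difference of the genotype means was -1.80 on the log2 scale, and within libraries J_7134 to J_7139 it was -2.23. The share of counts from mitochondrial genes was 17.1 to 27.1% in the Mll1-/- and 23.3 to 30.1% in the Mll1+/- libraries, and with those genes left out before scaling the log2 fold change of Foxa1 was -1.99.

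**Figure D1:**
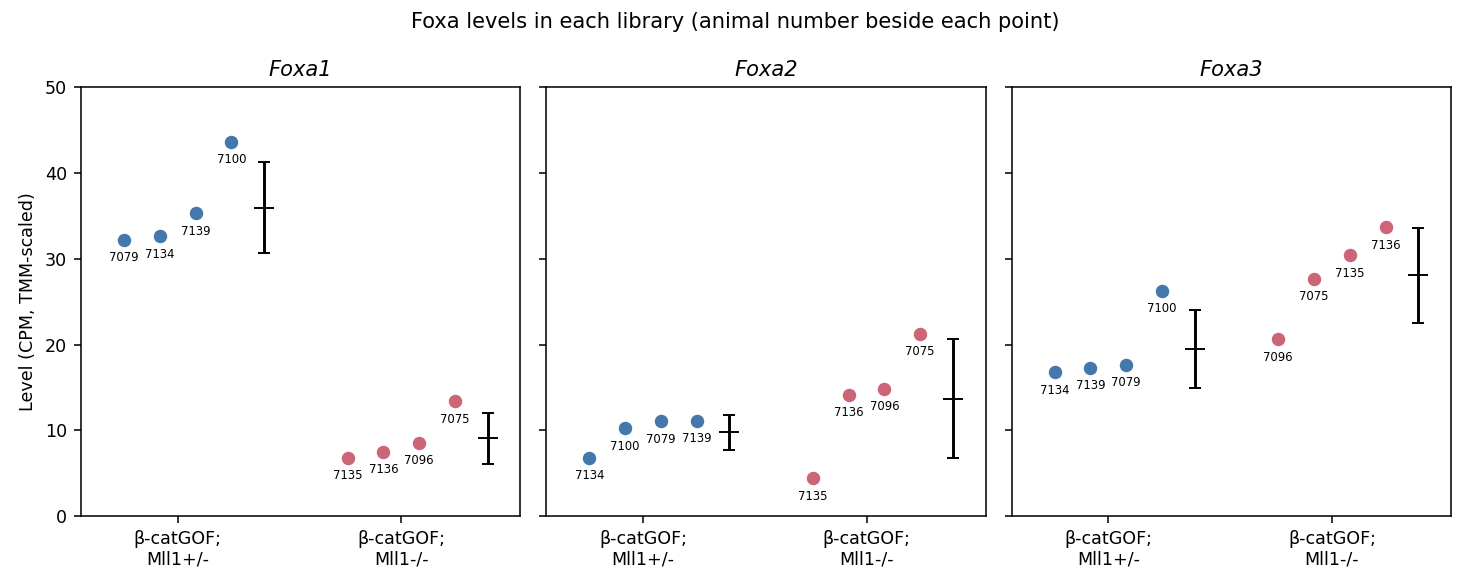
Level of Foxa1, Foxa2 and Foxa3 in CPM scaled with TMM (vertical axis, from 0) in each of the 8 libraries, with the animal number under each point and the mean and SD of each genotype (n = 4) as a bar to the right. For Foxa1 the Mll1-/- libraries (6.81 to 13.4 CPM) all lie below the Mll1+/- libraries (32.3 to 43.7 CPM), while the groups overlap for Foxa2 and Foxa3.

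Foxa2, the member needed earliest in the endoderm, had 82 to 360 reads in the Mll1-/- and 85 to 185 reads in the Mll1+/- libraries. Its level was 21.2 CPM in library J_7075, 14.9 in J_7096, 4.43 in J_7135 and 14.2 in J_7136 (Mll1-/-). In the Mll1+/- libraries it was 11.1 CPM in J_7079, 10.3 in J_7100, 6.82 in J_7134 and 11.1 in J_7139. Library J_7135 was the lowest of all 8, and the other 3 Mll1-/- libraries were above all Mll1+/- libraries. The means were 13.7 ± 6.94 and 9.81 ± 2.04 CPM (SD, n = 4 each), with a log2 fold change of 0.48 (SE 0.42), so the difference was about the size of its own error. Without library J_7135 the Mll1-/- mean was 16.8 ± 3.89 CPM (SD, n = 3) and the log2 fold change 0.77 (SE 0.26), and the genotypes then did not overlap, as was the case for 9.86% of all tested genes without that library. Between the 2 sets of animals the difference changed its sign, with 0.73 in libraries J_7075 to J_7100 and -0.13 in libraries J_7134 to J_7139, which hold library J_7135.

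Foxa3, which in adult tissue is typical of liver and gut, had 356 to 562 reads in the Mll1-/- and 209 to 374 reads in the Mll1+/- libraries. Its level was 27.7 CPM in library J_7075, 20.6 in J_7096, 30.4 in J_7135 and 33.7 in J_7136 (Mll1-/-). In the Mll1+/- libraries it was 17.7 CPM in J_7079, 26.3 in J_7100, 16.8 in J_7134 and 17.3 in J_7139. Library J_7100 lay among the Mll1-/- libraries and above J_7096, so the groups overlapped. The means were 28.1 ± 5.56 and 19.5 ± 4.54 CPM (SD, n = 4 each) and the log2 fold change was 0.53 (SE 0.23). It was 0.15 in libraries J_7075 to J_7100 and 0.91 in libraries J_7134 to J_7139, and 0.43 to 0.70 over the fits without 1 library.

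Of the 3 members, 1 was called at an adjusted p below 0.1, against 0.0851% of all tested genes, and 1 did not overlap between the genotypes, against 6.28%. The member called was Foxa1, and it was not called with a block for the 2 sets of animal numbers or with a covariate of Xist relative to Y-linked transcripts, nor without any 1 of libraries J_7079, J_7096, J_7100, J_7134, J_7136 and J_7139. Since the members were selected on this contrast, nothing is read from these counts. The members also differed in how much they varied among mice of 1 genotype. On the log2 scale the SD of Foxa3 was 0.30 and 0.31 in the Mll1-/- and Mll1+/- libraries and that of Foxa1 0.43 and 0.20, while that of Foxa2 was 0.98 and 0.34. Library J_7100 was the highest of the Mll1+/- libraries for Foxa1 and for Foxa3 but not for Foxa2. Across the 8 libraries the log2 levels of Foxa2 and Foxa3 had a Pearson r of 0.08 (exact permutation p = 0.856) and a Spearman rho of 0.19 (exact permutation p = 0.665), both two-sided and with 1 pair tested, so that the adjusted values are the same. Without libraries J_7075 and J_7135, the farthest from the median of Foxa2, r was 0.52. Without J_7135 alone it was 0.60 and without J_7075 alone -0.10, so the value near 0 rested on library J_7135. Pairs with Foxa1 were not correlated, since its libraries fall into 2 separate clusters by genotype.

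Between genes, levels were compared only per kilobase of counted length (3327 bases for Foxa1, 2370 for Foxa2 and 2037 for Foxa3). In the Mll1+/- libraries Foxa1 led with 10.8 ± 1.595 CPM per kb, followed by Foxa3 with 9.57 ± 2.23 and Foxa2 with 4.14 ± 0.859 (SD, n = 4 each). The means of Foxa1 and Foxa3 differed by less than their SDs, although Foxa1 was the higher in 4 of 4 libraries, and Foxa2 was below both in every one of them. In the Mll1-/- libraries the order was Foxa3 with 13.8 ± 2.73, Foxa2 with 5.78 ± 2.93 and Foxa1 with 2.73 ± 0.894 CPM per kb. Foxa3 was above the other members in every one of these libraries, and Foxa2 was above Foxa1 in 3 of 4, the exception being library J_7135 (1.87 for Foxa2 and 2.05 for Foxa1).

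The sum of the 3 genes was 22.3 ± 3.97 CPM per kb in the Mll1-/- and 24.5 ± 4.08 in the Mll1+/- libraries (SD, n = 4 each), a difference smaller than either SD, with ranges of 18.8 to 26.6 and 20.9 to 30.4 that overlapped. Its make-up was different. Foxa1 held 44.2% ± 2.07 of the sum in the Mll1+/- libraries, within 42.1 to 46.9%, and 12.2% ± 2.71 in the Mll1-/- libraries, within 9.08 to 15.1%. Foxa3 held 38.8% ± 2.89 and 62.6% ± 13.04, and Foxa2 17.0% ± 3.47 and 25.2% ± 11.1 (SD, n = 4 each). In library J_7135 alone, Foxa3 made up 79.2% of the sum, and without it, a choice made after seeing the data, the Mll1-/- shares were 12.6% ± 3.15 for Foxa1, 30.3% ± 5.35 for Foxa2 and 57.1% ± 8.46 for Foxa3 (SD, n = 3). The shares follow from the same counts as the fold changes above and are a description.

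**Figure D2:**
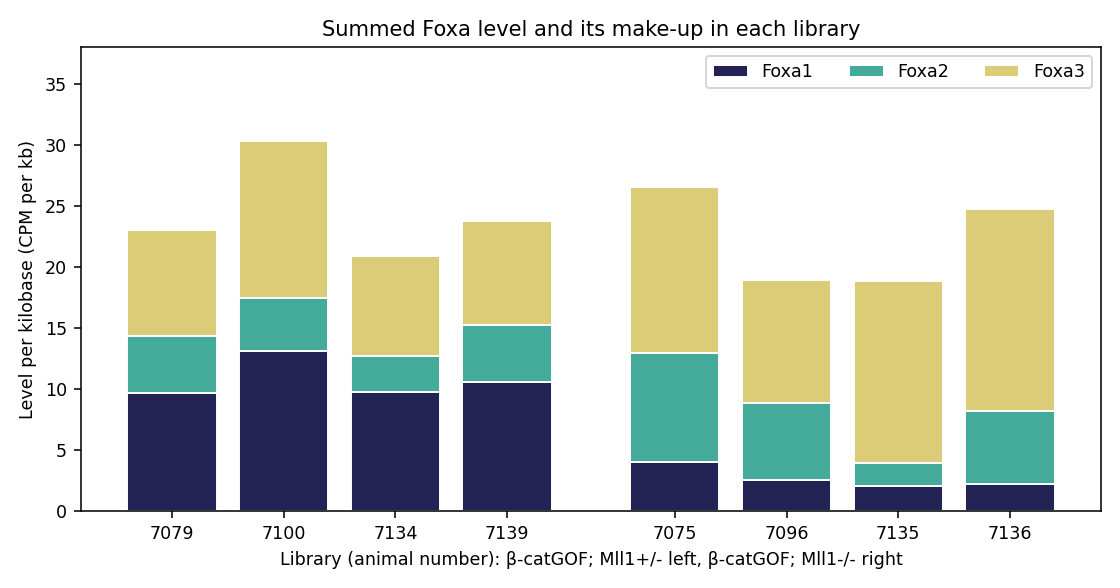
Stacked level of the 3 Foxa genes per kilobase (vertical axis, CPM per kb, from 0) in each library, Mll1+/- on the left and Mll1-/- on the right, with animal numbers on the horizontal axis. Foxa1 is the largest part of every Mll1+/- bar (42.1 to 46.9%) and a small part of every Mll1-/- bar (9.08 to 15.1%), while the heights of the bars overlap.

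Set among all genes with at least 1 count, Foxa1 ranked 4356 of 35767 per kilobase in the Mll1+/- libraries (the upper 12.2%) and 9830 of 35579 in the Mll1-/- libraries (the upper 27.6%). Foxa3 ranked 4712 and 3684, and Foxa2 7850 and 6672, in the same order of genotypes. The 3 genes share no exonic base with another annotated gene. Of the 31-base words of their transcripts, 0.243% of those of Foxa1 and 0.338% of those of Foxa2 occur in the other of the pair, and 0.199% of those of Foxa3 occur in Pcnp, so very few reads could be taken for those of a relative.

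The forkhead genes form a family of 44 symbols in the count table, of which 41 are not Foxa genes, and they share the DNA-binding domain but act in many tissues. In the Mll1+/- libraries Foxa1, Foxa3 and Foxa2 were first, second and sixth of the 44 per kilobase. In the Mll1-/- libraries they were seventh, first and second, in the same order. Outside the Foxa genes, the 6 with the highest mean over all libraries were Foxn3, Foxp1, Foxn2, Foxo1, Foxk2 and Foxo3. Foxn3 had 5.31 ± 0.454 CPM per kb in the Mll1-/- and 5.51 ± 1.54 in the Mll1+/- libraries (SD, n = 4 each). Foxp1 had 3.73 ± 0.468 and 4.75 ± 0.660, and Foxo3, which acts downstream of insulin signalling, had 2.34 ± 0.343 and 2.89 ± 1.45. Foxn2 had 2.77 ± 1.50 and 4.27 ± 1.15, and Foxk2 3.72 ± 1.53 and 2.65 ± 0.487 CPM per kb.

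Of the 41 other forkhead genes 15 were tested, 8 with a higher and 7 with a lower estimate, and their median log2 fold change was 0.08 beside 0.0076 over all tested genes. None of them was called, and 4 had an unadjusted p below 0.05, as did 9.15% of all tested genes. These were Foxq1, known from mucin-producing epithelia (log2 fold change 0.67, SE 0.25), Foxm1, a factor of dividing cells (0.77, SE 0.32), Foxp4 (0.70, SE 0.29) and Foxo1 (-0.49, SE 0.20). For Foxq1 the Mll1-/- libraries held 12.98, 8.92, 11.4 and 7.82 CPM (J_7075, J_7096, J_7135, J_7136) and the Mll1+/- libraries 6.76, 6.47, 6.34 and 6.26 CPM (J_7079, J_7100, J_7134, J_7139), which did not overlap. The genotypes did not overlap for Foxo1 and Foxp4 either, and they did for Foxm1. Of all tested genes, 6.28% did not overlap. Of the remaining 26 genes, Foxe3 and Foxb1 had no count in any library, and the other 24 had at most 14 counts in a library.

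**Figure D3:**
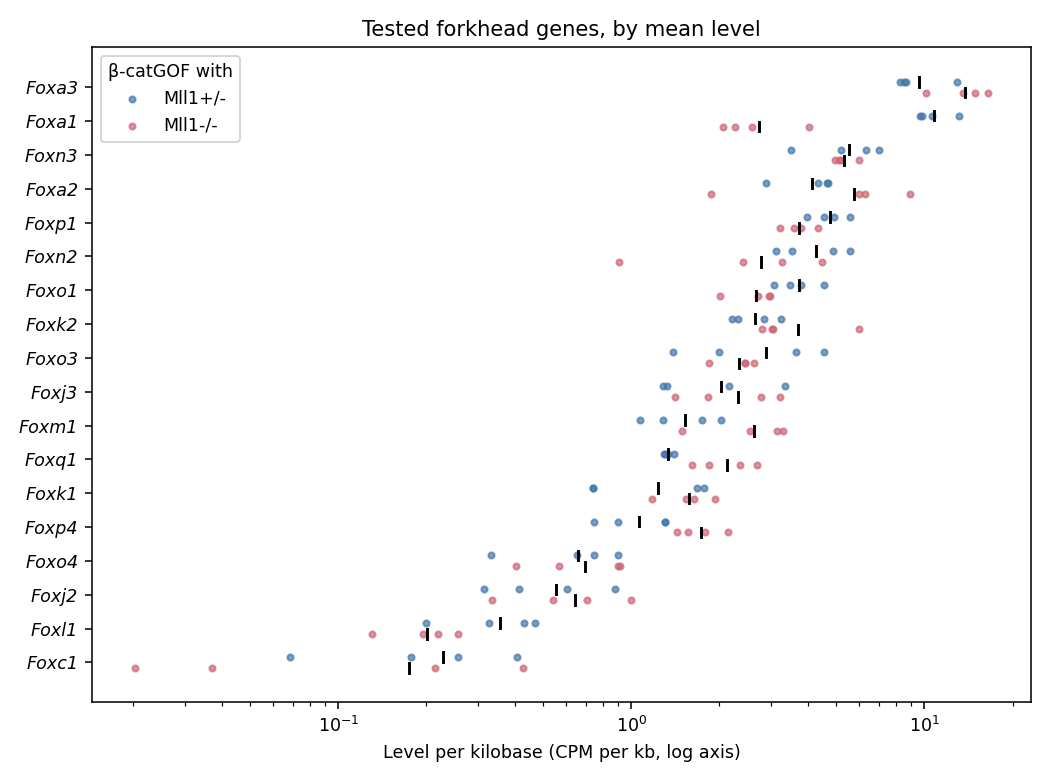
Level per kilobase (horizontal log axis, CPM per kb) of the 18 tested forkhead genes in each library, ordered by their mean, with Mll1+/- libraries in blue above Mll1-/- libraries in red and a black tick at each genotype mean. Foxa1 moves from 10.8 CPM per kb in the Mll1+/- libraries to 2.73 in the Mll1-/- libraries, and the other genes shown above 1 CPM per kb have log2 fold changes of at most 0.77 in size.

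Partner factors are the endodermal regulators that bind enhancers alongside Foxa proteins. All 20 listed were tested, 9 with a higher and 11 with a lower estimate (median log2 fold change -0.08), and none was called by edgeR. Over all lists described here edgeR called 1 gene, limma-voom 6 (1 higher and 5 lower) and DESeq2 without a prior 15 (9 higher and 6 lower). Those with an unadjusted p below 0.05 were 2 lower and 2 higher genes. Gata4, a GATA factor of the small intestine, had 6.20, 4.52, 19.4 and 3.55 CPM in the Mll1-/- libraries J_7075, J_7096, J_7135 and J_7136, and 35.5, 36.3, 29.3 and 37.8 CPM in the Mll1+/- libraries J_7079, J_7100, J_7134 and J_7139. All Mll1-/- libraries were lower, with library J_7135 nearest to the Mll1+/- group, and the log2 fold change was -2.04 (SE 0.50). Without library J_7135 it was -2.86 (SE 0.25), and edgeR then called Gata4 (adjusted p = 0.00749). Onecut2, a factor of the HNF6 family, had 38.2, 50.4, 83.0 and 33.4 CPM in the Mll1-/- and 192, 184, 111 and 180 CPM in the Mll1+/- libraries, in the same order of animals. Its log2 fold change was -1.70 (SE 0.30), again without overlap, and -2.04 (SE 0.23) without library J_7135, where edgeR called it too (adjusted p = 0.0149). Without any 1 of the other libraries, edgeR called no gene of the lists. In the other direction, Klf4, a factor of goblet cell maturation, had 29.7 ± 6.70 and 12.99 ± 4.45 CPM (SD, n = 4 each), a log2 fold change of 1.19 (SE 0.28). Prox1 had 96.5 ± 53.5 and 41.7 ± 14.4 CPM and a log2 fold change of 1.21 (SE 0.43).

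Of 14 co-regulators of Foxa proteins 12 were tested, 5 with a higher and 7 with a lower estimate (median log2 fold change -0.01). None was called, and 2 had an unadjusted p below 0.05, both higher in the Mll1-/- libraries. Smarca4, the ATPase of the SWI/SNF remodelling complex, had 112 ± 40.8 and 70.5 ± 3.57 CPM (SD, n = 4 each), with 171 CPM in library J_7135, without which the Mll1-/- mean was 92.5 ± 14.4 CPM (SD, n = 3) and the log2 fold change 0.39 in place of 0.67. Parp1 had 67.1 ± 3.15 and 53.0 ± 6.41 CPM.

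The goblet program, in which Foxa1 and Foxa2 are known to act on Muc2, was the list with the highest median, 1.01. This median was 0.87 without library J_7135 and 0.79 with limma-voom. It was 0.63 with at least 10 counts in every library and 0.55 with DESeq2 with a normal prior. All 16 genes were tested, 12 with a higher and 4 with a lower estimate, and none was called. The unadjusted p was below 0.05 for 8 higher genes and 1 lower gene. Muc2, the main mucin, had 25.9, 25.4, 81.8 and 31.8 CPM in the Mll1-/- libraries J_7075, J_7096, J_7135 and J_7136, and 14.7, 8.51, 12.2 and 7.62 CPM in the Mll1+/- libraries J_7079, J_7100, J_7134 and J_7139. The groups did not overlap, and library J_7135 was far above the rest. The log2 fold change of 1.94 (SE 0.43) was 1.36 (SE 0.26) without it. Guca2a, which encodes guanylin, had 73.0 ± 22.9 and 19.7 ± 9.53 CPM, and Agr2, a disulphide isomerase of mucin folding, had 365 ± 100.0 and 192 ± 29.7 CPM (SD, n = 4 each). Spdef, a factor of secretory differentiation, had 79, 71, 279 and 101 counts in the Mll1-/- and 32, 23, 19 and 10 in the Mll1+/- libraries, in the same order of animals. Atoh1, which directs cells to the secretory lineage, had 102, 165, 726 and 474 counts and 99, 79, 9 and 91 counts. Zg16, the only lower gene of the list with an unadjusted p below 0.05 and named after its values were seen, had 0 to 50 counts in the Mll1-/- and 34 to 627 in the Mll1+/- libraries.

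The enteroendocrine program, in which Foxa1 and Foxa2 act upstream of Isl1 and Pax6, was detected unevenly from library to library. The study's methods describe a small number of sorted cells for each library, and its part in this spread was not tested. Of 13 genes 7 were tested, 1 with a higher and 6 with a lower estimate (median log2 fold change -1.48), and none was called. Only Chga and Chgb, which encode granins, had an unadjusted p below 0.05. Chgb had 9, 2, 14 and 1 counts in the Mll1-/- and 125, 423, 61 and 95 counts in the Mll1+/- libraries, and Chga 0, 0, 3 and 0 against 13, 114, 11 and 13 counts, in the same order of animals. Isl1 had 28, 12, 1 and 83 counts in the Mll1-/- and 51, 13, 2 and 1 in the Mll1+/- libraries, and Pax6 7, 26, 1 and 5 against 39, 11, 5 and 27. Both varied widely within each genotype. So did the lineage factors Neurog3, Neurod1 and Insm1, named after their values were seen, of which library J_7079 held 161, 384 and 173 counts and library J_7134 none. Without library J_7135 the log2 fold change of Chgb was -5.60 (SE 0.95), and edgeR then called it (adjusted p = 0.0943), while the median of the list was -1.11. Chgb was not called without any 1 of the other libraries. The hormone genes Gcg, Pyy, Sst and Cck and the factor Nkx2-2 did not pass the filter.

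Among 17 genes known as Foxa1 targets in luminal epithelia such as breast and prostate, 13 were tested, 10 with a higher and 3 with a lower estimate (median log2 fold change 0.28). The median was 0.13 without library J_7135 and 0.09 with limma-voom. Agr3, a relative of Agr2, was the 1 gene of all lists that was called. It had 31.3, 28.6, 46.9 and 43.9 CPM in the Mll1-/- libraries J_7075, J_7096, J_7135 and J_7136, and 134, 96.3, 107 and 90.1 CPM in the Mll1+/- libraries J_7079, J_7100, J_7134 and J_7139. The groups did not overlap, and Agr3 fell with a log2 fold change of -1.50 (SE 0.21, edgeR, adjusted p = 0.0918). The call was lost with the block for the sets of animal numbers and without any 1 library other than J_7135. In the other direction, 5 genes had an unadjusted p below 0.05, among them Spdef and Agr2 (above) and the keratin gene Krt8, with 481 ± 103 and 323 ± 28.2 CPM (SD, n = 4 each). The 2 Agr genes thus stood on opposite sides, with a log2 fold change of 0.93 (SE 0.21) for Agr2, which was not called.

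Of 17 classical Foxa targets of liver, pancreas and lung only 6 were tested, 3 with a higher and 3 with a lower estimate (median log2 fold change -0.20). The median was -0.70 without library J_7135 and -0.76 with DESeq2 without a prior or with no filter beyond 1 count. Among the genes that did not pass the filter were Alb and Afp, which encode serum proteins of liver, and Sftpc of lung, with at most 39 counts in any library. The 3 lower genes had an unadjusted p below 0.05, and none was called. Cps1, a urea cycle enzyme that is also made in the gut, had 1185, 1165, 931 and 733 CPM in the Mll1-/- and 1922, 2123, 1540 and 2066 CPM in the Mll1+/- libraries, in the same order of animals, without overlap. Apoa1 had 12.95 ± 2.56 and 29.1 ± 6.04 CPM and Apob 45.2 ± 8.09 and 68.8 ± 15.8 CPM (SD, n = 4 each). Both encode apolipoproteins of enterocytes, and Apoa1 is also among the enterocyte markers that were lower in sum in the Mll1-/- libraries. Of the fits without 1 library, edgeR called Apoa1 only in that without J_7135 (adjusted p = 0.0963).

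**Figure D4:**
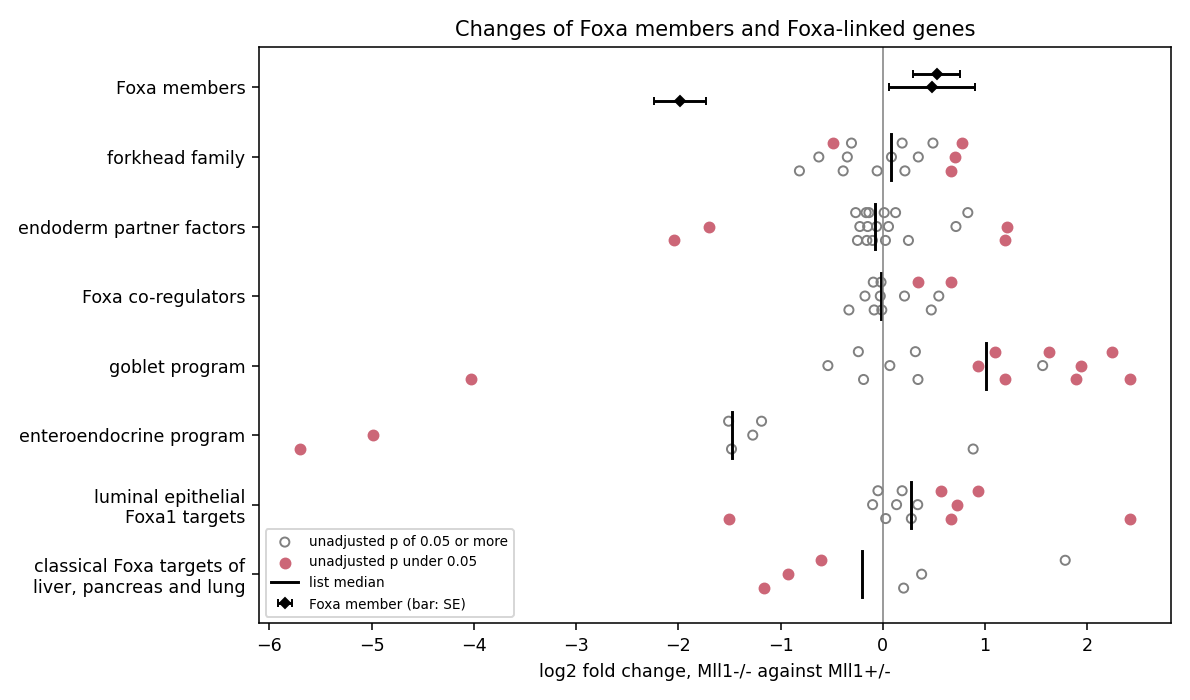
Log2 fold change of the Mll1-/- against the Mll1+/- libraries (horizontal axis) for the 3 Foxa genes, with SE bars, and for the tested genes of each list, with the list median as a black line and genes with an unadjusted p below 0.05 filled. Foxa1 (-1.99) lies apart from Foxa2 (0.48) and Foxa3 (0.53), and the medians run from -1.48 for the enteroendocrine to 1.01 for the goblet program.

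The neighbourhood of each gene was read within 100 kb of its body. Around Foxa1, 3 of 7 annotated neighbours were tested, and none separated the genotypes. The nearest of them, Ttc6, begins 17197 bases away and had 1.18, 1.27, 18.1 and 2.36 CPM in the Mll1-/- libraries J_7075, J_7096, J_7135 and J_7136, and 2.87, 7.73, 5.37 and 6.52 CPM in the Mll1+/- libraries J_7079, J_7100, J_7134 and J_7139. Apart from library J_7135, which was the highest of all, the Mll1-/- libraries were below the Mll1+/- libraries, and without it the log2 fold change was -1.81 (SE 0.46) in place of 0.03. Ttc6 was not called then either (edgeR, adjusted p = 0.208), and 9.86% of all tested genes did not overlap without that library. Its difference was -1.84 in libraries J_7075 to J_7100 and 0.16 in libraries J_7134 to J_7139, which hold library J_7135. Mipol1, at 43429 bases, had a log2 fold change of -0.30 (SE 0.26), and Rpl26-ps2, at 85665 bases, of 0.22 (SE 0.46).

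Next to Foxa2, 1 of 3 neighbours was tested, 9030622O22Rik, a transcript annotated 2674 bases away. It had 27, 17, 0 and 40 counts in the Mll1-/- and 42, 1, 0 and 52 counts in the Mll1+/- libraries, in the same order of animals. The 3 libraries with 0 or 1 count (J_7135, J_7134 and J_7100) were also the 3 with the lowest Foxa2 level (4.43, 6.82 and 10.3 CPM). This was noticed after the values were seen and was not tested.

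Around Foxa3, 7 of 16 neighbours were tested, and 2 of the 7 did not overlap between the genotypes, against 6.28% of all tested genes. Irf2bp1, 6507 bases away, had 25.8, 28.3, 25.1 and 27.6 CPM in the Mll1-/- and 16.1, 17.6, 13.1 and 11.9 CPM in the Mll1+/- libraries, in the same order of animals, with a log2 fold change of 0.86 (SE 0.19, edgeR, adjusted p = 0.202). Dmpk, 60311 bases away, had 21.5, 20.7, 41.9 and 23.5 CPM against 13.5, 11.4, 18.0 and 16.3 CPM, with a log2 fold change of 0.86 (SE 0.28), or 0.57 (SE 0.21) without library J_7135. The other 5, Sympk (0.77), Mypopos (0.34), Dmwd (0.08), Six5 (-0.42) and Fbxo46 (-0.31), overlapped between genotypes. Sympk, the nearest at 839 bases, had its highest levels in libraries J_7135 and J_7136 (10.9 and 8.67 CPM), those in which Foxa3 was highest too.

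The 5 tested genes with the pattern most like that of each member were found by Pearson r of log2 CPM over the 8 libraries. For Foxa1 they were Lmbr1 (r = 0.984), Igha (0.978), Fabp2 (0.976), Gpr22 (0.972) and Vpreb3 (0.971), and each of them was lower in all Mll1-/- libraries, as was the gene they were matched to. Fabp2, the intestinal fatty acid binding protein, had the same order of the 8 libraries as Foxa1 (Spearman rho 1) and a log2 fold change of -0.93 (SE 0.18), and Lmbr1, also with rho 1, one of -0.62 (SE 0.19). Igha and Vpreb3 rested on few counts, with at most 0.968 and 3.29 CPM. For Foxa2 the genes were Gm43820 (0.969), Prex2 (0.967), Zfp72 (0.967), Zfand5 (0.956) and Gm37553 (0.955), none of which separated the genotypes. Zfand5 was the most abundant of them, with 57.2 CPM in library J_7135 and 86.2 to 166 CPM in the others. For Foxa3 they were Cish (0.962), Gtf2i (0.950), Ssbp4 (0.946), Wipi2 (0.942) and Gm19327 (0.939), of which only Gtf2i separated the genotypes, with a log2 fold change of 0.36 (SE 0.12). Each r was picked as one of the highest over all 16445 tested genes and is a description with no p.

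**Figure D5:**
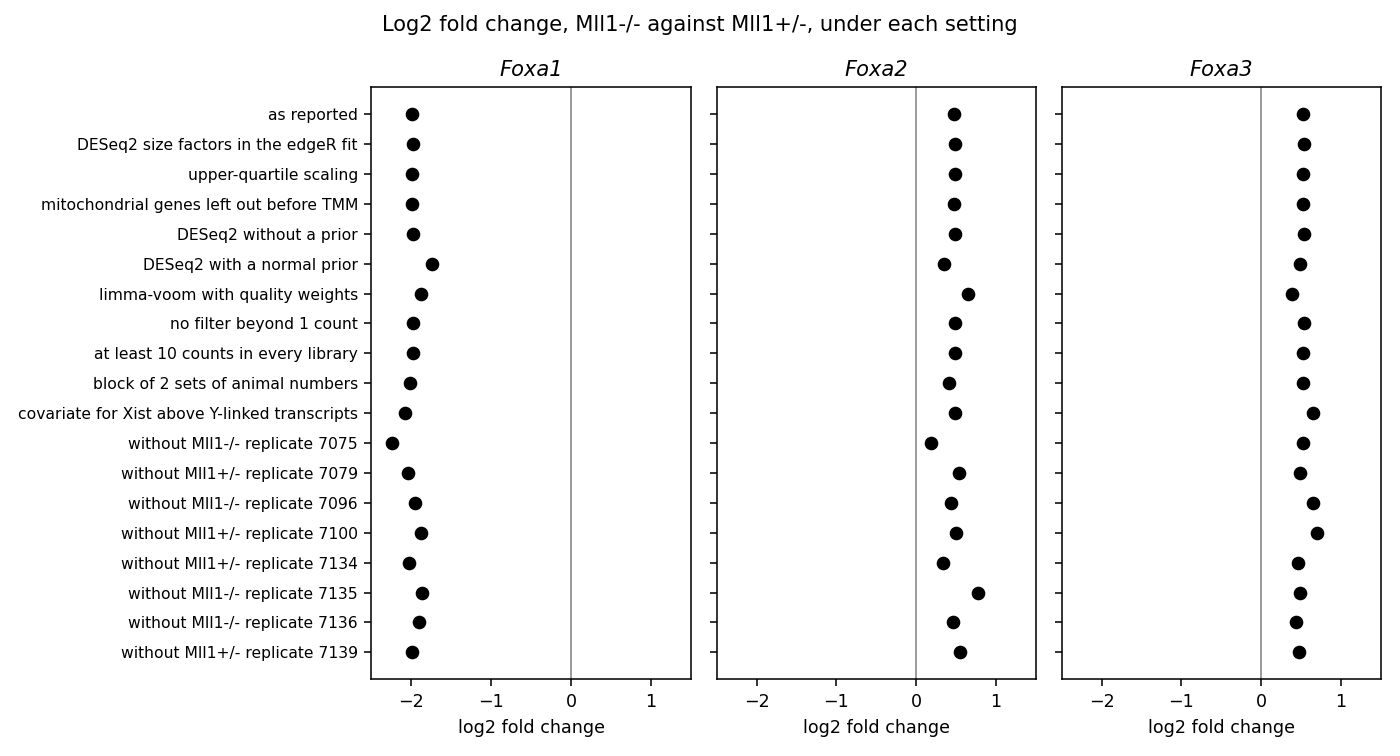
Log2 fold change of each Foxa gene (horizontal axes) as reported and under 18 other settings. Foxa1 lies between -2.24 and -1.74 in all of them, and Foxa2 (0.18 to 0.77) and Foxa3 (0.38 to 0.70) lie above 0.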

How the data were processed

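RNA of sorted Lgr5-GFP+ cells was amplified by the Smart-seq2 protocol, which carries no molecular identifiers, so the floors cover counting only. The standard errors come from the fit across libraries and include the spread between them. Reads were mapped by the authors to mm10 (GSNAP), assigned to genes of Ensembl release 92 with featureCounts 1.6.3 where unique, and deposited as raw counts. Their second deposited table holds signal, the same counts after division by a size factor for each library (0.811 to 1.17, recovered here). The deposited length column (in bases, unit other) served for CPM per kb. The members, gene lists and tests were chosen with earlier results of these data known.

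Genes with enough counts (filterByExpr, minimum 10, total 15) were scaled with TMM and tested with edgeR 4.0.16 (robust quasi-likelihood F test, genotype as the only term, R 4.3.3), and p-values were adjusted after Benjamini and Hochberg over all 16445 genes. The study's 10% false discovery rate was kept. Standard errors were derived from the fold change and its F statistic. 3 counts in a library correspond to 0.162 to 0.241 CPM. Besides the members and Kmt2a, genes were named by rule: neighbours within 100 kb, the 5 most alike in pattern (log2 CPM with a prior count of 2), the 6 forkhead genes with the highest level per kb, and list genes that were called or had an unadjusted p below 0.05 (at most 4 a list, all in the forkhead family), with Atoh1, Spdef, Isl1 and Pax6 by their counts. In simulated counts of 16445 genes 200 were changed, and 195 of these were among the 15902 genes that passed the filter again. Of all genes changed by a log2 of 1, edgeR recovered 19%, and of those changed by 2, 62%. Among its calls 13.8% were false. On the same simulated counts the alternatives DESeq2 1.42.0 (all 16445 genes kept) and limma 3.58.1 had 40.1% and 12.2% false calls. The tests measure the spread between libraries, each described as 1 mouse. The sequences are from RefSeq (GRCm38.p6), and correlations were computed with scipy. 1 gene of the lists is not reported here.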

Additional observations from a re-analysis of the deposited data

Results flagged for a closer look

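Within the 4 libraries of a genotype, 9 of 64 groups of values checked held a library farther from the rest than Dixon's 95% critical value for 4 samples allows, where chance flags about 1 in 20. Among the members this was Foxa3 in library J_7100, the highest of the Mll1+/- libraries with 26.3 CPM against 16.8 to 17.7 CPM in the other 3. Without library J_7100 the log2 fold change of Foxa3 was 0.70 (SE 0.22).

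Library J_7135 (Mll1-/-) was the high one for Ttc6 (18.1 CPM), the neighbour of Foxa1, for Dmpk (41.9 CPM), which lies near Foxa3, for Gata4 (19.4 CPM) and for Muc2 (81.8 CPM). Library J_7134 (Mll1+/-) was the low one for Onecut2 (111 CPM) and Atoh1 (0.722 CPM). Dmwd was high in library J_7079 (5.39 CPM) and Kmt2a in library J_7100 (64.9 CPM), both Mll1+/-.

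Outside the genes, the spike-in transcripts of the count table, which are not part of any comparison, had 36 counts in library J_7100 and 0 to 2 counts in each of the others, above the 3 counts used as the floor.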

How the results depend on the processing

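Over 18 alternatives the log2 fold change of Foxa1 stayed between -2.24 and -1.74, and that of Foxa2 (0.18 to 0.77) and Foxa3 (0.38 to 0.70) above 0. The call of Foxa1 is counted only, as it was chosen on this contrast. With a block of the 2 sets of animal numbers its value was -2.02, and with a covariate of Xist relative to Y-linked transcripts, chosen after seeing the data, it was -2.08, neither called. Without 1 library it ran from -2.24 to -1.87, called without J_7075 or J_7135 only. The number of genes called, 14, was 8 with upper-quartile scaling, 517 with DESeq2 without a prior, 452 with a normal prior, 103 with limma-voom, 47 with no filter beyond 1 count, 34 with at least 10 counts in every library, 0 with the block and 0 with the Xist covariate (1642 and 1616 genes at an unadjusted p below 0.05), and 0 to 45 without 1 library (0 without 6 of them, 2 without J_7075, 45 without J_7135). The number of list genes called, 1, was 15 and 15 with DESeq2 without and with a prior, 6 with limma-voom, 6 with no filter, 4 with at least 10 counts in every library, 0 with the block, 0 with the Xist covariate, and 0 to 5 without 1 library (5 without J_7135). The causes were not tested. The medians of the forkhead, partner, co-regulator and enteroendocrine lists each changed sign in at least 1 fit without 1 library. That of the last was 0.14 without J_7079. The medians of the goblet list, luminal targets and classical targets ran from 0.55 to 1.10, 0.09 to 0.37 and -0.77 to -0.03. The enteroendocrine median had no value with at least 10 counts in every library. The r of Foxa2 with Foxa3 ran from -0.12 to 0.60 without 1 library. The ratios of mean levels in the authors' signal table were 0.254, 1.4 and 1.45 for Foxa1, Foxa2 and Foxa3.

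No paired analysis was made, since the animal numbers of the 2 groups are all different and the labels give no other pairing. Shares of 1 to 3 counts, as for Chga, are below what this depth can separate from 0.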
